A study of Mus musculus with 8 samples.

Results

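The Bcl2 family decides at the mitochondrion whether a cell survives or dies, and 10 of its genes were followed here in cultured mouse spermatogonia. The members were the rows of the deposited count table named *Bcl2*, *Bcl2l1*, *Mcl1*, *Bax*, *Bak1*, *Bbc3*, *Pmaip1*, *Bcl2l11*, *Bmf* and *Hrk*, and all 10 were found among 55421 genes. Spermatogonial stem cells were derived from testes of 6-day-old pups of C57BL/6XDBA/2 F1 hybrid mice and were kept on irradiated embryonic fibroblasts, which are non-dividing feeder cells of CF1 mice. Cells labelled Veh stayed in complete spermatogonial medium, and cells labelled RA had retinoic acid added to it. For nutrient restriction (NR, labelled EBSS) the medium held 10% complete medium and 90% Earle's Balanced Salt Solution, and NRRA cells (labelled RA_EBSS) had retinoic acid in this restricted medium. Treatment lasted 2 days, and 2 libraries were sequenced per condition. The comparisons ask what retinoic acid and nutrient restriction, the combination used in the study to induce meiotic initiation, did to the transcripts of these genes.

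Members of this family act through each other. Survival proteins (Bcl2, Bcl-xL encoded by *Bcl2l1*, and Mcl1) bind and restrain the pore-forming effectors Bax and Bak, which otherwise open the outer mitochondrial membrane, release cytochrome c and start the caspase cascade. BH3-only proteins, among them Puma (*Bbc3*), Noxa (*Pmaip1*), Bim (*Bcl2l11*), Bmf and Hrk, are set free or induced by stress, occupy the survival proteins and so unleash the effectors. In the testis, the balance between Bax and Bcl-xL shapes the early wave of germ cell death, and loss of Bax leaves surplus spermatogonia. Much control of the family lies in protein stability, phosphorylation and splicing, which gene-level read counts do not show. *Bcl2l1* and *Bcl2l11* each give isoforms of different potency, and their reads were counted together.

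Total counts per library ran from 19261333 to 30023585, and all 10 members passed the expression filter that left 20477 genes for testing. Levels are given as CPM, read counts divided by library size after edgeR's TMM scaling between libraries. *Stra8*, the retinoid target needed for meiotic entry, rose from 1.33 ± 0.263 CPM for Veh to 14.4 ± 0.167 for NR, 642 ± 15.1 for RA and 937 ± 28.5 for NRRA (SD, n = 2). Markers of undifferentiated spermatogonia (8 genes) summed to 863 to 928 CPM for Veh, 326 to 333 for RA, 761 to 778 for NR and 155 to 156 for NRRA. The 5 general germ cell markers summed to 674 to 700 CPM for Veh and 849 to 875 for NRRA, with 765 to 830 for RA and 794 to 830 for NR. This sum does not speak for each marker. In NRRA vs Veh, 2 were higher (*Ddx4* and *Dazl*) and 2 lower (*Mael* and *Dnd1*), and *Dazl* alone went from 311 to 466 CPM. The 10 fibroblast markers, none of them at 0, summed to 11193 to 11388 CPM for Veh, 8693 to 9409 for RA, 23123 to 24345 for NR and 20055 to 20646 for NRRA. Fibroblast transcripts were present in each library. Of the 10 fibroblast markers, 9 were higher in NR than in Veh, while in NRRA vs Veh 7 were higher and 3 lower. Over all tested genes, 21.7% were higher and 22.2% lower in NR vs Veh (edgeR adjusted p under 0.05). In NRRA vs Veh these shares were 30.1% and 28.7%. Macrophage markers summed to 203 to 288 CPM, and the 5 Sertoli cell markers to 35.5 to 38.0 CPM with Veh, 24.1 to 24.2 with RA, 41.8 to 44.5 with NR and 11.6 to 13.0 with NRRA. Most of the Sertoli cell sum was *Sox9*, with condition means of 7.14 to 36.1 CPM, and *Wt1*, with 4.50 to 8.96, while the defining genes *Amh* and *Fshr* reached at most 0.167 and 0.0241.

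Divided by the length of their exons, the abundant members were *Bax*, *Mcl1*, *Bak1* and *Bcl2l1*. In Veh, the level per kilobase of exon was 48.4 ± 3.16 CPM for *Bax*, 47.7 ± 0.632 for *Mcl1*, 35.3 ± 3.12 for *Bak1* and 31.5 ± 0.429 for *Bcl2l1* (SD, n = 2). *Bax* and *Mcl1* differed by less than the spread of the *Bax* libraries, while *Bak1* lay above *Bcl2l1* in both libraries. Among the BH3-only genes, *Pmaip1* led with 18.6 ± 2.47 CPM per kilobase, followed by *Bbc3* with 7.62 ± 0.707, *Bcl2l11* with 5.56 ± 0.19 and *Bmf* with 4.41 ± 0.204. *Bcl2* itself was scarce, at 0.613 ± 0.0102, and *Hrk* was at 0.178 ± 0.0695.

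**Figure D1:**
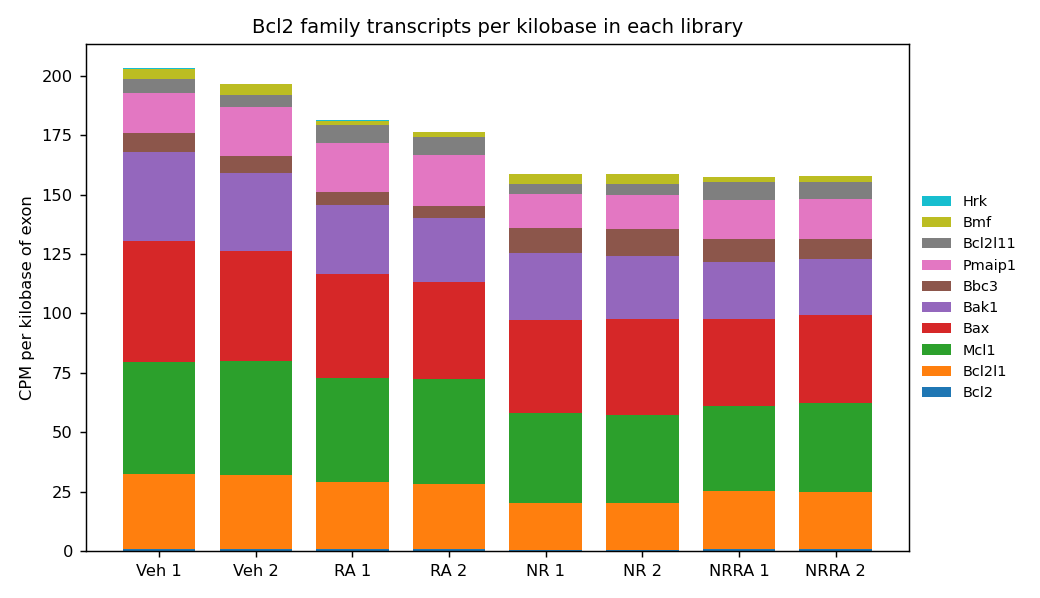
Stacked bars give the level of each of the 10 genes in CPM per kilobase of exon in each of the 8 libraries. The whole stack averaged 200 for Veh, 179 for RA, 159 for NR and 158 for NRRA, and *Bax*, *Mcl1*, *Bak1* and *Bcl2l1* made up most of it in every library.

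The summed level of the 10 genes fell in steps, from 200 ± 4.77 CPM per kilobase for Veh to 179 ± 3.48 for RA, 159 ± 0.0417 for NR and 158 ± 0.407 for NRRA. This loss lay in the survival and effector genes. The 3 survival genes together went from 79.8 ± 0.214 for Veh to 72.4 ± 0.357 for RA, 57.7 ± 0.781 for NR and 61.7 ± 0.684 for NRRA. The sum of both effectors went from 83.7 ± 6.28 to 70.4 ± 3.68, 67.2 ± 0.0169 and 60.4 ± 0.241 in the same order. The BH3-only sum stayed between 33.2 and 37.3 CPM per kilobase over all 8 libraries. The ratio of the BH3-only sum to the survival sum was accordingly 0.456 ± 0.0151 for Veh, 0.497 ± 0.0101 for RA, 0.585 ± 0.0205 for NR and 0.576 ± 0.0148 for NRRA, with no overlap between the libraries of Veh and those of either restricted condition. These sums describe RNA only, cover only the 10 members and carry no test. Other genes of the family, such as *Bcl2l2* and *Bid* described below, are not in them. In bulk libraries, fewer cells of a type and less RNA per cell cannot be told apart.

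*Bcl2l1* (ENSMUSG00000007659, chr2:152780668-152831728 of GRCm38, minus strand) showed the clearest response to nutrient restriction among the survival genes. Its level was 146 and 143 CPM in the Veh libraries, 129 and 126 for RA, 89.7 and 90.5 for NR, and 113 and 109 for NRRA. Each condition occupied its own range, with Veh highest and NR lowest. Against Veh, *Bcl2l1* fell by 0.68 on the log2 scale in NR (SE 0.0476, edgeR adjusted p = 5.3e-12), to 62.4% of the Veh mean. The value for NRRA was -0.38 (SE 0.0462, adjusted p = 8.45e-08). The smaller difference in RA, -0.18 (SE 0.0464, adjusted p = 0.0024), was -0.04 with offsets for the GC content and length of genes (adjusted p = 0.412).

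*Mcl1* (ENSMUSG00000038612, chr3:95658788-95663176, plus strand) encodes a short-lived survival protein. Its libraries stood at 162 and 165 CPM for Veh, 150 in both RA libraries (149.9 and 150), 130 and 126 for NR, and 122 and 128 for NRRA. NR and NRRA overlapped each other and lay below RA, which lay below Veh. *Mcl1* fell by 0.35 on the log2 scale under NR (SE 0.0461, edgeR adjusted p = 6.93e-07) relative to Veh. Its value for NRRA was -0.38 (SE 0.0456, adjusted p = 6.18e-08). In RA it was -0.12 (SE 0.0457, adjusted p = 0.0327), a call that DESeq2 did not make (adjusted p = 0.06) and that was also lost with the offsets (-0.04, adjusted p = 0.359) and when any library other than Veh replicate 1 was left out.

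*Bcl2* (ENSMUSG00000057329, chr1:106538178-106714274, minus strand), the founding member of the family, moved the other way from Veh in the conditions with retinoic acid. It had 100 to 256 counts per library, which correspond to 5.55 and 5.68 CPM for Veh, 6.22 and 8.18 for RA, 4.82 and 4.48 for NR, and 7.97 and 8.22 for NRRA. Both conditions with retinoic acid lay above both conditions without it. *Bcl2* rose by 0.53 on the log2 scale in NRRA vs Veh (SE 0.136, edgeR adjusted p = 0.00162) and by 0.80 in NRRA vs NR (SE 0.136, adjusted p = 2.31e-05). In RA vs Veh the value was 0.39 (SE 0.142, adjusted p = 0.0305), which was not stable. Without RA replicate 2 it was 0.15 (adjusted p = 0.558), without Veh replicate 1 it was 0.39 (adjusted p = 0.083), and without Veh replicate 2 it was 0.42 (adjusted p = 0.0522). With all libraries, DESeq2 gave an adjusted p of 0.147. The difference of NR from Veh did not pass (-0.28, SE 0.156, edgeR adjusted p = 0.16), although both NR libraries lay below both Veh libraries. Of the exon bases of *Bcl2*, 6.1% overlap *D630008O14Rik* on the opposite strand, which had 4 to 26 counts.

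Both effectors were highest in Veh and lowest in NRRA. *Bax* (ENSMUSG00000003873, chr7:45461697-45466898, minus strand) had 79.7 and 72.7 CPM for Veh, 69.0 and 64.4 for RA, 61.1 and 63.9 for NR, and 57.4 and 58.7 for NRRA. None of the 3 treated conditions overlapped Veh. *Bax* fell by 0.39 on the log2 scale in NRRA (SE 0.0578, edgeR adjusted p = 1.75e-06) and by 0.29 in NR (SE 0.0586, adjusted p = 0.000262). Its value in RA was -0.20 (SE 0.0582, adjusted p = 0.00758), or -0.05 with GC and length offsets (adjusted p = 0.371). That call was also lost without Veh replicate 1 (-0.11, adjusted p = 0.167) or RA replicate 2 (-0.15, adjusted p = 0.146). The annotated gene that shares 12.2% of the exon bases of *Bax*, *Gm45808*, had 0 counts in every library.

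*Bak1* (ENSMUSG00000057789, chr17:27019810-27029009, minus strand) had 90.3 and 79.7 CPM for Veh, 70.5 and 65.0 for RA, 68.4 and 64.2 for NR, and 57.4 and 56.2 for NRRA. RA and NR overlapped, and both lay between Veh and NRRA. *Bak1* fell by 0.58 on the log2 scale in NRRA relative to Veh (SE 0.0612, edgeR adjusted p = 6.48e-09). Single treatments gave smaller values, -0.33 for RA (SE 0.0614, adjusted p = 8.1e-05) and -0.36 for NR (SE 0.0616, adjusted p = 2.67e-05). *Ggnbp1*, on the opposite strand, covers 18.2% of the exon bases of *Bak1*, had 387 to 561 counts, and gave values of -0.50 for NRRA, -0.24 for RA and -0.33 for NR. Whether the counting used the strand of the reads was not given in the sources used here, so reads of this overlap may have been shared.

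*Bmf* (ENSMUSG00000040093, chr2:118528757-118549687, minus strand), whose protein is tied to the actin and dynein cytoskeleton and is released when cells lose their attachment, had the widest range of the 10 genes. It had 23.9 and 22.4 CPM for Veh and 20.2 and 22.1 for NR, but 9.74 and 11.1 for RA and 11.4 and 12.6 for NRRA. The libraries with retinoic acid formed a low group and those without it a high group. *Bmf* fell by 1.14 on the log2 scale in RA vs Veh (SE 0.0955, edgeR adjusted p = 2.81e-10), to 44.9% of Veh, the one change of the family past a fold of 2. It fell by 0.82 in NRRA vs NR (SE 0.0889, adjusted p = 2.49e-08), while NR differed from Veh by -0.13 (SE 0.0857, adjusted p = 0.242) and NRRA from RA by 0.20 (SE 0.0998, adjusted p = 0.122). Both effects of retinoic acid were called in every alternative fit. The summed markers of undifferentiated spermatogonia were also lower in both conditions with retinoic acid. Their sum was 155 to 156 CPM for NRRA and 326 to 333 CPM for RA, but it does not speak for each marker. In NRRA vs RA, 5 of the 8 markers were lower, 2 were higher (*Zbtb16* and *Id4*) and 1 was not called. Over all tested genes, 20.9% were higher and 19.4% lower in that comparison. *Zbtb16* had means of 164 CPM for Veh, 31.8 for RA, 244 for NR and 35.4 for NRRA. *Id4* had 4.01 CPM for RA and 15.2 for NRRA. The part of these markers in the result was not tested.

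*Bcl2l11* (ENSMUSG00000027381, chr2:128126038-128162547, plus strand), the gene of Bim, took the opposite course. Its level was 45.7 and 43.6 CPM for Veh, 60.0 and 59.1 for RA, 33.8 and 36.1 for NR, and 60.9 and 58.6 for NRRA. RA and NRRA could not be separated (0.0045, SE 0.0554, adjusted p = 0.96), although their media differed and NR lay below Veh. Retinoic acid raised *Bcl2l11* by 0.41 on the log2 scale in complete medium (SE 0.0596, edgeR adjusted p = 2.78e-06) and by 0.77 in restricted medium (SE 0.059, adjusted p = 3.64e-11). Under nutrient restriction alone its value was -0.35 (SE 0.0634, adjusted p = 5.63e-05). On the scale per kilobase, *Bcl2l11* exceeded *Bmf* by a ratio of 1.26 ± 0.0154 for Veh and 1.08 ± 0.0149 for NR, against 3.76 ± 0.384 for RA and 3.27 ± 0.335 for NRRA (SD, n = 2).

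*Bbc3* (ENSMUSG00000002083, chr7:16308393-16318205, plus strand), which encodes Puma and is a well-known target of p53, was the one member that nutrient restriction raised. It had 17.2 and 15.1 CPM for Veh, 11.1 and 10.7 for RA, 22.6 and 23.7 for NR, and 20.8 and 18.5 for NRRA. The 4 conditions did not overlap, with RA lowest and NR highest. *Bbc3* fell by 0.57 on the log2 scale in RA (SE 0.1, edgeR adjusted p = 4.02e-05) and rose by 0.52 in NR (SE 0.089, adjusted p = 3.11e-05). NRRA was 0.85 above RA (SE 0.0915, adjusted p = 1.9e-08). The difference of NRRA from Veh, 0.28 (SE 0.0885, adjusted p = 0.00899), was not called by DESeq2 (adjusted p = 0.068), without Veh replicate 2 (0.18) or without NRRA replicate 1 (0.19). The order RA, Veh, NRRA, NR is also that of the summed fibroblast markers, which were 8693 to 9409, 11193 to 11388, 20055 to 20646 and 23123 to 24345 CPM in these conditions. The single markers *Lum*, *Pdgfra*, *Col5a1* and *Fbn1* did not follow it. *Lum*, for instance, had means of 236 CPM for RA, 234 for Veh, 140 for NRRA and 255 for NR. The summed macrophage markers ran in the same order of conditions, at 203 to 223, 253 to 255, 263 to 277 and 286 to 288 CPM. Of these markers, *Adgre1* and *Lyz2* followed the order singly, while *Ptprc*, *Csf1r* and *Cd68* did not. The part of the fibroblast and macrophage markers in the result was not tested.

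*Pmaip1* (ENSMUSG00000024521, on chromosome 18, plus strand), the gene of Noxa, a BH3-only protein that binds Mcl1, had 46.1 and 55.7 CPM for Veh, 57.1 and 59.3 for RA, 39.2 in both NR libraries (39.22 and 39.18), and 44.5 and 45.4 for NRRA. Veh was spread widely, and its lower library stood just above NRRA. *Pmaip1* fell by 0.37 on the log2 scale in NR vs Veh (SE 0.0709, edgeR adjusted p = 1e-04) and had a value of -0.38 in NRRA vs RA (SE 0.0656, adjusted p = 3.9e-05), so nutrient restriction lowered it in both media. Its response to retinoic acid was 0.20 in each medium (adjusted p = 0.0197 in RA vs Veh and 0.0215 in NRRA vs NR) and was lost with DESeq2 (adjusted p = 0.0702 and 0.104). In RA vs Veh it was 0.03 with GC and length offsets (adjusted p = 0.697), 0.09 without Veh replicate 1 and 0.17 without RA replicate 2, and in NRRA vs NR it was lost without any 1 of the NR and NRRA libraries (0.18 to 0.21) and was 0.12 with the offsets (adjusted p = 0.0709). The value for NRRA vs Veh, -0.18 (SE 0.0681, adjusted p = 0.0283), was -0.04 without Veh replicate 2 (adjusted p = 0.648) and was also lost without NRRA replicate 1 or 2 (adjusted p = 0.132 and 0.0758).

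*Hrk* (ENSMUSG00000046607, chr5:118164648-118189478, plus strand), known mainly from dying neurons, was close to the detection limit with 14 to 27 counts per library. Its level was 1.29 and 0.73 CPM for Veh, 0.918 and 0.936 for RA, 1.11 and 0.532 for NR, and 0.643 and 0.803 for NRRA. The libraries of Veh and of NR were spread more widely than those of RA and NRRA, and the log2 values against Veh (-0.13, -0.36 and -0.48 in RA, NR and NRRA) had standard errors of 0.373, 0.387 and 0.376. No difference of *Hrk* was detectable at this depth.

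**Figure D2:**
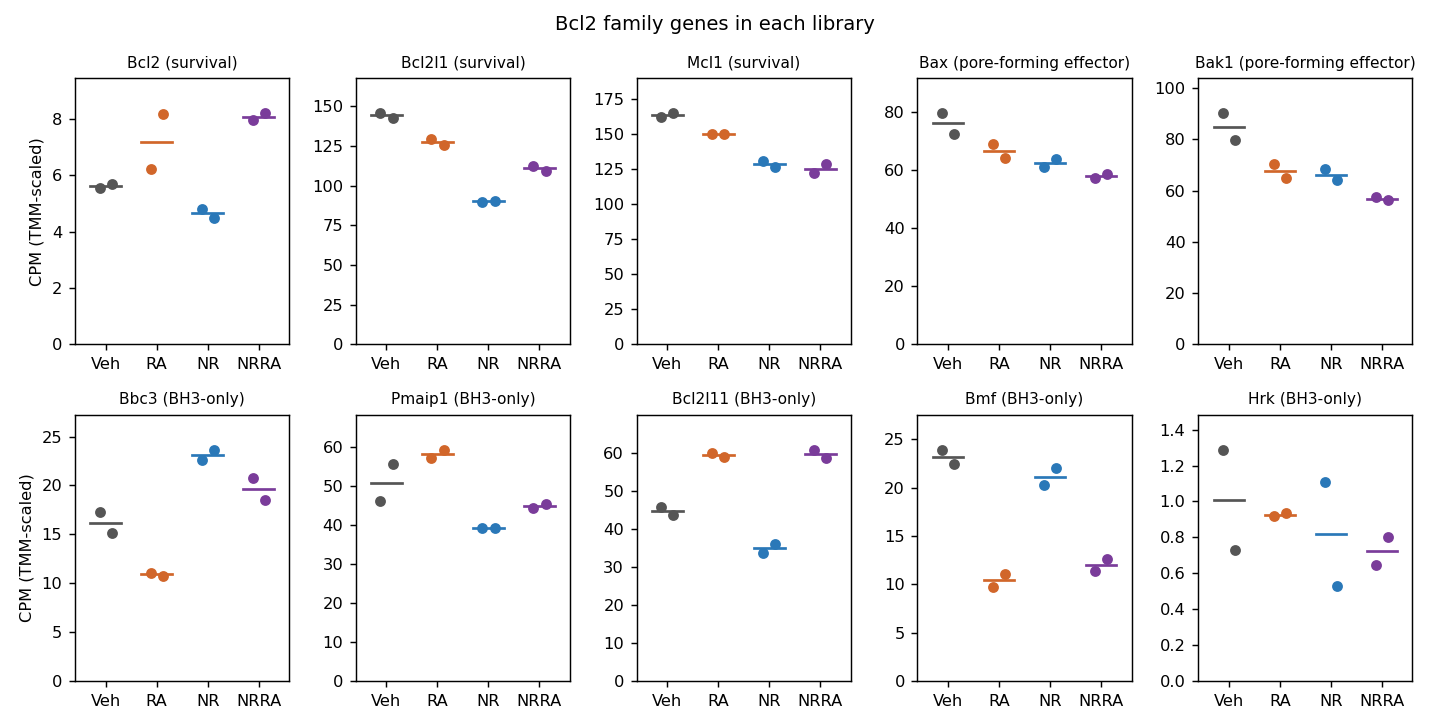
Each panel shows 1 gene in CPM after TMM scaling, with a point for each library, a line at the mean of the 2 libraries, and the vertical axis starting at 0. *Bmf* is low and *Bcl2l11* high in the 4 libraries with retinoic acid, *Bcl2l1* is lowest in NR at 89.7 and 90.5 CPM, and *Bbc3* is lowest in RA and highest in NR.

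The 3 promoter stretches below show sequence context for BH3-only genes that responded. Sequences are from RefSeq on GRCm38.p6. Windows of 9 of the 10 genes were searched, 16 in all, each from 250 bases before to 50 bases after a transcription start. *Pmaip1* was left out of the search. The stretches are 100 bases long, run 5′ to 3′ on the strand of the gene, lie before the start of the window's transcript and touch no annotated exon. The *Bbc3* stretch belongs to a start inside the annotated span of the gene. Capitals mark a match to GTAAACA (or its reverse complement TGTTTAC), the core bound by forkhead factors such as FoxO proteins, in *Bcl2l11* and *Bbc3*, and to AGGTCA, the hexamer bound by nuclear receptors, in *Bmf*.
*Bcl2l11*, chr2:128125788-128125887: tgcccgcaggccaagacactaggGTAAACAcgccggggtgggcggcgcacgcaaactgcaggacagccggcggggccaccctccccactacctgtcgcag
*Bbc3*, chr7:16310048-16310147: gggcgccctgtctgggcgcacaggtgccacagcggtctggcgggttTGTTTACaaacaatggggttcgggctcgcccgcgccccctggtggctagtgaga
*Bmf*, chr2:118549773-118549872, minus strand: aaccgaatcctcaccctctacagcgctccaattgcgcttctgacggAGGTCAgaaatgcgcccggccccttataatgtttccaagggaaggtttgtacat

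The forkhead letters began at base -227 from the start in *Bcl2l11* and at -167 in *Bbc3*, and they were in no window of the other searched members. On either strand, they were in 3.65% of 32817 promoter windows of all genes. AGGTCA began at -140 in *Bmf* and was also found in 1 *Bcl2l1* window. It was in 16.3% of all windows, so that a match to it is common. TGATGNAA, the letters bound by Atf4 with C/EBP proteins, were found in *Hrk* alone (3.97% of all windows), CACGTG in *Bbc3* and *Bax* (7.15%), TTTCGCGC in *Bcl2l1* (0.323%), and the p53 decamer motif in *Bax* and *Bmf* (8.36%). No binding was measured, and a match is only a run of letters.

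Across the comparisons, most members moved, but so did a large part of the transcriptome, and the changes were small. A gene was called when its adjusted p over all tested genes was under 0.05 (edgeR's quasi-likelihood test). In RA vs Veh, 3 members were higher (*Bcl2*, *Pmaip1*, *Bcl2l11*) and 6 were lower, against 43.2% of all tested genes called, 19.8% higher and 23.4% lower. In NR vs Veh, 1 was higher (*Bbc3*) and 6 were lower, with 43.9% of all genes called, 21.7% higher and 22.2% lower. In NRRA vs Veh, 3 were higher (*Bcl2*, *Bbc3*, *Bcl2l11*) and 6 were lower, with 58.9% of all genes called, 30.1% higher and 28.7% lower. With a fold of at least 2 added, the threshold of the study, 1 member remained in RA vs Veh (7.49% of all genes) and 0 in NR vs Veh (8.29%) and NRRA vs Veh (15.9%). There were also 0 such members in NRRA vs NR (8.7%), NRRA vs RA (8.29%) and the interaction described below (2.24%). The median absolute log2 fold change of the members was 0.27 for RA, 0.35 for NR and 0.41 for NRRA, beside 0.26, 0.27 and 0.38 over all tested genes. The signed median of the members was -0.15, -0.35 and -0.38, while that of all genes was -0.02, 0.01 and 0.03. Over all alternative fits, 4 of the 9 calls in RA vs Veh (*Bak1*, *Bbc3*, *Bcl2l11*, *Bmf*), all 7 in NR vs Veh and 7 of the 9 in NRRA vs Veh (not *Bbc3* and *Pmaip1*) were made each time.

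**Figure D3:**
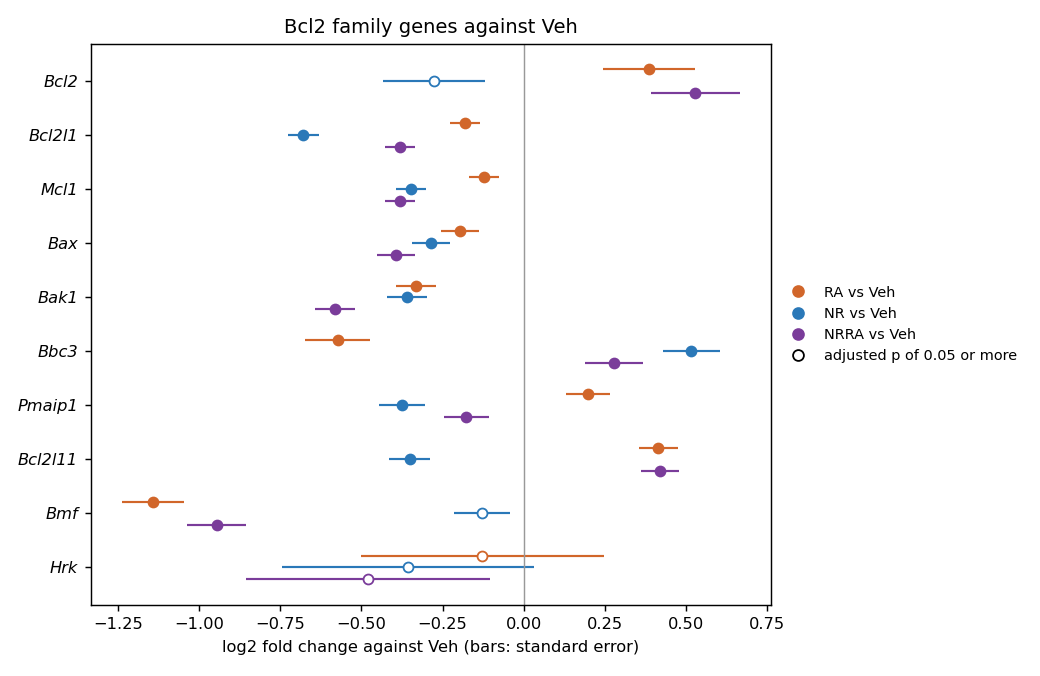
Points give the log2 fold change of each gene against Veh for RA, NR and NRRA, bars give its standard error, and open points have an adjusted p of 0.05 or more. *Bcl2l1*, *Mcl1*, *Bax* and *Bak1* lie left of 0 in all 3 comparisons, *Bmf* lies at -1.14 in RA and -0.95 in NRRA, and *Bbc3* changes side between RA (-0.57) and NR (0.52).

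The design also lets each treatment be read in both media, from comparisons that share no library. Retinoic acid changed 6 members in the same direction in RA vs Veh and in NRRA vs NR, against 27.9% of all tested genes. *Bcl2*, *Pmaip1* and *Bcl2l11* were higher in both, and *Bak1*, *Bbc3* and *Bmf* were lower in both, while *Bcl2l1* was called in opposite directions. Its RA vs Veh value was -0.04 and not called with GC and length offsets (adjusted p = 0.412). In NRRA vs NR alone, 4 members were higher and 3 lower (43.4% of all genes called, 21.3% higher and 22.1% lower). *Bak1*, *Bbc3* and *Pmaip1* lost this second call in some alternatives, *Bbc3* with DESeq2 (adjusted p = 0.0782), without NR replicate 2 (adjusted p = 0.132) or without NRRA replicate 2 (adjusted p = 0.26), *Pmaip1* as given above, and *Bak1* without NR replicate 1 (adjusted p = 0.0599) or NRRA replicate 2 (adjusted p = 0.056). Nutrient restriction likewise changed 6 members in the same direction in NR vs Veh and in NRRA vs RA (26.9% of all genes). *Bcl2l1*, *Mcl1*, *Bax*, *Bak1* and *Pmaip1* were lower in both, and *Bbc3* was higher in both. In NRRA vs RA, 1 member was higher and 5 lower (40.3% of all genes called, 20.9% higher and 19.4% lower). The log2 values there were -0.20 for *Bcl2l1*, -0.26 for *Mcl1*, -0.20 for *Bax*, -0.25 for *Bak1*, -0.38 for *Pmaip1* and 0.85 for *Bbc3*. The calls of *Bax* and *Bak1* were lost without RA replicate 1 (adjusted p = 0.114 and 0.0512), and that of *Bax* also without NRRA replicate 1 (adjusted p = 0.0766).

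A medium-dependent response to retinoic acid was assessed by an interaction term, which subtracts the RA vs Veh value from the NRRA vs NR value. It was called for 2 members, both positive (13% of all tested genes called, 6.37% higher and 6.58% lower). *Bcl2l1* was lower with retinoic acid in complete medium (-0.18) and higher with it in restricted medium (0.30), a difference of 0.48 (SE 0.0662, edgeR adjusted p = 8.07e-06). For *Bcl2l11* the response to retinoic acid was larger under restriction by 0.36 (SE 0.0841, adjusted p = 0.00471), or by 0.27 without NR replicate 1 (adjusted p = 0.099). The values for *Bcl2* (0.42, SE 0.199, adjusted p = 0.185), *Bbc3* (0.33, SE 0.129, adjusted p = 0.0913) and *Bmf* (0.32, SE 0.132, adjusted p = 0.11) did not pass, which does not show equal responses. That of *Bbc3* passed without Veh replicate 2 (0.39, adjusted p = 0.0371).

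**Figure D4:**
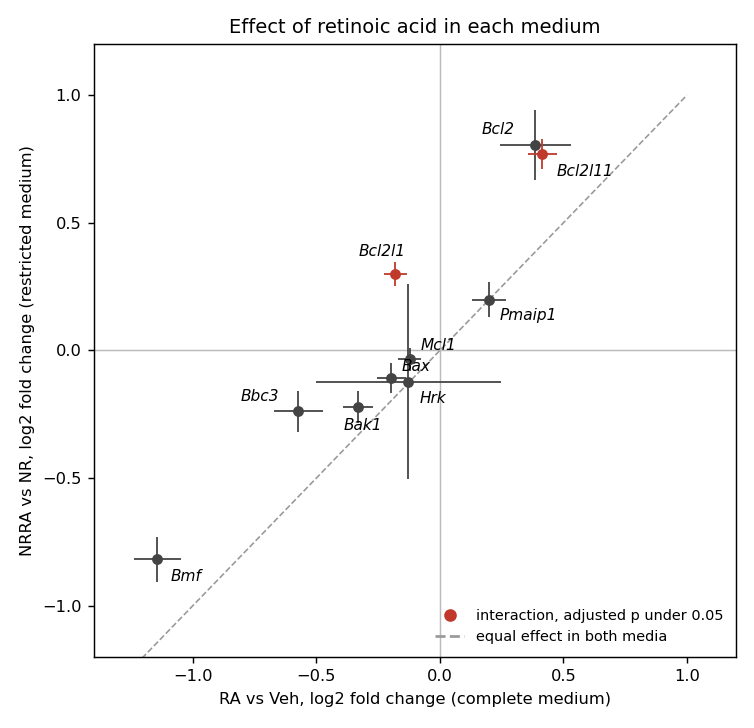
Each point is a gene, placed by its log2 fold change with retinoic acid in complete medium (horizontal, RA vs Veh) and in restricted medium (vertical, NRRA vs NR), with standard errors as bars and equal effects on the dashed line. *Bcl2l11* (0.41 and 0.77) and *Bcl2l1* (-0.18 and 0.30), in red, are the genes with a called interaction, and *Pmaip1* lies on the line at 0.20.

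Other genes of the pathway were taken from lists of known components, and the calls in each list stand beside 58.9% of all tested genes called in NRRA vs Veh, 30.1% higher and 28.7% lower. Of 5 other survival members, 3 were higher and 1 lower in NRRA vs Veh. Among these called genes, *Bcl2a1a* and *Bcl2a1d* (higher) and *Bcl2l10* (lower) had few reads, with means of 32.75, 30.75 and 4.625 counts. *Bcl2l2*, the gene of Bcl-w, rose by 0.21 on the log2 scale (SE 0.0666, edgeR adjusted p = 0.00872). Of 5 other death-promoting members, 1 was higher (*Bcl2l14*, with a mean of only 14.75 counts) and 2 were lower in NRRA. *Bok*, a relative of Bax and Bak, was at 19.6 ± 2.71 CPM for Veh, 8.3 ± 0.512 for RA, 8.85 ± 0.319 for NR and 5.73 ± 0.481 for NRRA (SD, n = 2), and fell by 1.78 for NRRA (SE 0.112, adjusted p = 3.18e-13). *Bid*, which links caspase 8 to the mitochondrion, had values of -0.47 for RA and -0.41 for NRRA (adjusted p = 5.81e-07 and 1.29e-06) and differed from Veh by -0.02 for NR (adjusted p = 0.79). Among 5 tested genes with more distant Bcl2 homology, 1 was higher in NRRA, the hypoxia-inducible mitophagy receptor gene *Bnip3* (0.75, SE 0.0812, adjusted p = 1.1e-08).

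Downstream of the mitochondrion, 4 of 17 genes were higher and 5 lower in NRRA vs Veh, where 58.9% of all genes were called, with a median log2 fold change of 0.0067 beside 0.03 over all genes. *Xiap*, an inhibitor of caspases, rose from 58.8 ± 6.21 CPM for Veh to 107 ± 7.45 for RA, 75.4 ± 1.77 for NR and 86.8 ± 0.0648 for NRRA. *Cycs*, the gene of cytochrome c, fell by 0.63 in NRRA (SE 0.0621, edgeR adjusted p = 2.38e-09) with a value of -0.49 in NR. In the death receptor pathway, 3 of 12 tested genes were higher and 3 lower. *Fas* was at 25.6 ± 2.79 CPM for Veh, 16.8 ± 0.787 for RA, 55.1 ± 0.315 for NR and 40.9 ± 0.626 for NRRA. *Bbc3* and the sums of the fibroblast and of the macrophage markers had the same order of conditions, though not each marker did. *Pidd1* rose by 0.25, while *Cflar*, whose product blocks caspase 8, had a value of -0.39 and *Tnfrsf10b* -0.35 in NRRA (adjusted p = 0.0018, 2.9e-07 and 2.15e-06).

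Of the 25 p53 targets, 8 were higher and 12 lower in NRRA vs Veh (median -0.15, edgeR), beside 30.1% of all genes higher and 28.7% lower. *Trp53inp1* and *Rrm2b* rose by 0.72 and 0.75 (adjusted p = 1.63e-10 and 8.23e-07), and *Plk3* and *Gdf15* fell (-1.65 and -1.10, adjusted p = 6.4e-17 and 6.15e-10). Of 12 tested genes upstream of BH3-only genes, which encode transcription factors and the pseudokinase Trib3, 2 were higher and 7 lower in NRRA. *Ddit3*, the gene of the stress factor Chop, rose by 0.59 (SE 0.0721, adjusted p = 9e-08), and *Jun* and *Foxo6* fell (-1.11 and -1.49, adjusted p = 1.5e-16 and 3.75e-13). The 4 FoxO genes, which are among these 12, were added after their values were seen, because of the forkhead letters above. The 2 members with these letters moved in opposite directions. *Bcl2l11* had log2 fold changes of 0.41 in RA and -0.35 in NR, and *Bbc3* had -0.57 and 0.52. A link between FoxO genes and these members was not tested. In RA vs Veh all 4 were lower, with log2 fold changes of -0.32 for *Foxo1*, -0.41 for *Foxo3*, -0.23 for *Foxo4* and -1.51 for *Foxo6* (adjusted p of at most 0.00535). In NR vs Veh, *Foxo1* (0.33) and *Foxo3* (0.54) were higher, *Foxo6* was lower (-0.38), and *Foxo4* was not called (0.13, adjusted p = 0.119). In NRRA vs Veh, *Foxo1* (-0.19) and *Foxo4* (-0.32) were lower, as was *Foxo6*, and *Foxo3* was not called (-0.04, adjusted p = 0.419). Among 13 genes for kinases, ubiquitin enzymes and dynein light chains that act on the family, 5 were higher and 5 lower in NRRA, led by *Mapk8* (0.76) and *Pim1* (0.69) upward and by *Pim3* and *Akt2* downward (-0.58 and -0.57, adjusted p of at most 6.41e-08 for all 4). The 12 amino acid response targets had 2 higher and 4 lower. *Atf5* rose by 0.76 and *Slc7a11* and *Phgdh* fell (-2.25 and -1.80, adjusted p = 6.81e-12, 7.37e-18 and 4.79e-20 in this order). *Asns* (0.065, adjusted p = 0.307) and *Chac1* (-0.10, adjusted p = 0.642) did not pass in NRRA vs Veh. In NR vs Veh, 4 of these 12 genes were higher and 6 lower, beside 21.7% of all tested genes higher and 22.2% lower. *Trib3* (0.55, adjusted p = 0.000502) and *Chac1* (0.43, adjusted p = 0.0386) were higher there, and *Asns* was lower (-0.14, adjusted p = 0.0409). *Trib3* was chosen after its values were seen.

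The genes whose levels ran most like those of 3 members were named by Pearson's correlation of log2 CPM over the 8 libraries, among 2523 or 2524 genes with a range of condition means of at least 1 on the log2 scale. Libraries of a condition share their treatment, so these values are descriptions. Among the genes closest to *Bmf* were *Mcam* (r = 0.99) and *Matn4* (0.988), which had log2 fold changes of -1.35 and -1.90 in RA vs Veh. *Bbc3* was closest to *Fzd2* (0.994), *Psmb9* (0.993) and *Fcgrt* (0.988). Like *Bbc3*, these were lower in RA (-0.67, -0.89 and -0.78) and higher in NR (0.60, 0.71 and 0.69). *Bcl2* was closest to *Mfap5* (0.964), a gene of the extracellular matrix, *Acan* (0.961), the gene of a cartilage proteoglycan, and *Wnt7b* (0.961). The values of these in NRRA vs Veh were 0.95, 1.05 and 1.75.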

How the data were processed

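Stranded poly(A) RNA-seq libraries of 4 conditions were analysed, with 2 replicates each taken from the sample titles. The authors deposited whole-number counts of reads per gene without normalization. The submitters' processing notes list bcl2fastq, STAR 2.6.1c, featureCounts 1.6.4 and mm10, and the annotation release and strand setting are not given in the sources used here. No source ties equal replicate numbers across conditions, so p-values measure the spread between 2 libraries per condition.

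Counts were filtered with filterByExpr, scaled by TMM and fitted with edgeR 4.0.16 (R 4.3.3) by quasi-likelihood over all 8 libraries, with 1 coefficient per condition and Benjamini-Hochberg adjustment over 20477 genes in each of 6 comparisons. The study used DESeq2, and DESeq2 1.42.0 was run as an alternative. The standard error is the absolute log2 fold change divided by the square root of F. Of 55421 identifiers, 55154 matched GENCODE M21 (GRCm38), which gave coordinates, overlaps and exon lengths. Figures used matplotlib 3.10.9. The model was tested on simulated data. Total counts of 19261333 to 30023585 per library left *Hrk* with 14 to 27 reads. Replicates differed beyond sampling noise (chi-square per gene 1.58 to 3.93), and all were kept.

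The members, gene lists and motifs were chosen with earlier results of these data known. All members were named, and list genes were the called ones with the largest change in NRRA vs Veh, at most 2 in each direction with a mean of at least 50 counts. A few genes that this rule names are not reported here. Alternatives were other scalings and filters, DESeq2, only the compared libraries, each library left out, a replicate block, and offsets for GC content and length.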

Additional observations from a re-analysis of the deposited data

Results flagged for a closer look

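The effect of retinoic acid differed between the media for 2 genes in the test of the interaction itself. For *Bcl2l1* the difference was 0.48 on the log2 scale (edgeR adjusted p = 8.07e-06), with lower levels in both RA libraries than in Veh and higher levels in both NRRA libraries than in NR. The interaction was called in every alternative fit, but the lower level in RA was not, with -0.04 under GC and length offsets (adjusted p = 0.412). For *Bcl2l11* it was 0.36 (adjusted p = 0.00471), with higher levels in both libraries with retinoic acid in each medium, and 0.27 without NR replicate 1 (adjusted p = 0.099).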

How the results depend on the processing

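Of the 40 called member values, 27 kept their direction and their call in every alternative fit and 13 lost the call in at least 1. With a fold of at least 2 added, the number of members called was 1 in RA vs Veh and 0 in NR vs Veh, NRRA vs Veh, NRRA vs NR, NRRA vs RA and the interaction. The count for all genes then fell to 1534, 1698, 3263, 1781, 1697 and 459 in the same order. In RA vs Veh, offsets for GC content and length left 5 of 9 members called, and 4 with the replicate block as well. Over all tested genes the count hardly moved, from 8837 (43.2%) in the main fit to 8624 and 8499 under these settings. The cause of the lost member calls was not tested. Leaving out 1 library gave 5 to 8 members in RA vs Veh (5 without RA replicate 2), 4 to 8 in NRRA vs NR (4 without NRRA replicate 2) and 1 to 3 in the interaction (1 without NR replicate 1). For the interaction over all genes, DESeq2 called 1716 in place of 2652, and leaving out RA replicate 2, NR replicate 1 or NRRA replicate 2 gave 1642, 1727 and 1753.

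The replicate block alone changed no call of a member. Replicate differences of the conditions correlated by -0.0334 to 0.0225. With 2 libraries per condition, this cannot decide whether libraries of equal number share more than the number. Sign changes were confined to values without a call. The interaction of *Pmaip1* (-0.00042) was 0.0078 without the filter, 0.0030 with the replicate block, 0.088 with GC and length offsets, 0.092 with both, and -0.17 to 0.092 with a library left out. NRRA vs RA of *Bcl2l11* (0.0045) was -0.015 with DESeq2, with RLE scaling and with the stricter filter, -0.0043 with only the compared libraries, -0.049 with GC and length offsets, -0.050 with the block added, and -0.022 to 0.032 with a library left out. With a library left out, NRRA vs RA of *Bcl2* was -0.015 to 0.38, and the interaction was -0.017 to 0.14 for *Bax* and -0.017 to 0.17 for *Bak1*. For *Hrk*, RA vs Veh was 0.0084 with offsets and the replicate block. Its interaction was -0.0099 with RLE scaling, -0.012 with upper-quartile scaling, -0.038 with the stricter filter, -0.030 with the replicate block, -0.036 with offsets and -0.072 with both. With a library left out, *Hrk* ran from -0.45 to 0.37 in RA vs Veh, -0.91 to 0.14 in NR vs Veh, -0.62 to 0.43 in NRRA vs NR and -0.51 to 0.54 in the interaction.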
